A study of Rattus norvegicus with 20 samples.

Results

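The endothelin and bradykinin system was followed through 8 rat kidney genes, chosen by symbol from the 34681 rows of the deposited table. They were the ligand genes Edn1 and Edn3, the converting enzyme gene Ece1, the endothelin receptor genes Ednra and Ednrb, the bradykinin receptor genes Bdkrb1 and Bdkrb2, and the tissue kallikrein gene Klk1. All 8 were found, and 7 of them were among the 15954 rows that passed the filter on low values, set at 10 or more normalized reads in 3 or more libraries. Bdkrb1 failed it. The study looked at kidney injury that follows trauma in the rat, with RNA taken from frozen kidney. The 20 libraries fall into 4 groups by their disease label, with 3 libraries of RM-HS, 6 of RM, 5 of HS and 6 of Sham. RM-HS, RM and HS are called the injured groups below. The labels name no strain, age or time after injury, and they leave the abbreviations RM and HS unexplained. By the labels RM has 6 libraries, all used here, although the stated design has 5 of a total of 19. Whether the libraries come from different animals is not stated, so p-values measure only the spread between them, part of which may be technical.

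Endothelins are peptides cut from large precursors by endothelin converting enzymes. Endothelin 1 constricts renal vessels through the type A receptor on smooth muscle, while the type B receptor of endothelium and collecting duct is linked to nitric oxide, sodium excretion and clearance of the peptide. Bradykinin and kallidin are released from kininogen by kallikreins, the tissue kallikrein of the kidney being made mainly in the connecting tubule, and they act on a constitutive B2 receptor and an inducible B1 receptor.

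Values are normalized read counts, and differences are log2 fold changes ± SE of log2(value + 1), which understates the change of low genes. Genes passed at a limma p under 0.05 after Benjamini-Hochberg adjustment over all tested rows. The libraries held 45047179 to 109940948 reads, of which 42.2% to 54.7% were mitochondrial. Markers of each kidney segment examined were detected in all 4 groups. Sham 2 to 5 stood apart from Sham 1 and 6 in early proximal tubule, podocyte and collecting duct markers. The early proximal sum was 41720 to 76460 in Sham 2 to 5, whereas Sham 1 had 159400 and Sham 6 had 184200. The podocyte sum was 2981 to 6756 in Sham 2 to 5, whereas Sham 1 had 10450 and Sham 6 had 9897. The collecting duct principal cell sum divided them the other way, at 58470 to 94150 in Sham 2 to 5, against 35840 in Sham 1 and 51270 in Sham 6. So did the late proximal sum, by a narrow margin, at 73430 to 108100 in Sham 2 to 5, against 73160 in Sham 1 and 62190 in Sham 6. Thick ascending limb and distal tubule sums did not divide the Sham libraries in either way. Comparisons with Sham were therefore repeated with Sham 1 and Sham 6 alone. The 3 comparisons with Sham share their control libraries. Library names begin with R or S, which makes a second division. RM has 1 R library (RM 1) and 5 S libraries, HS has 3 and 2, and RM-HS and Sham have R alone.

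Promoters are shown for the ligand gene and the receptor gene that both passed as higher than Sham in RM-HS, RM and HS with all 6 Sham libraries. The limits of these calls are given below. Each is the 250 bases before the gene start in RefSeq on the GRCr8 build, which differs from the rn6 build of the counts. Capitals mark matches to any of the motifs searched on both strands, and positions count back from -1, the base before the start.
Edn1, chr17:22666688-22666937, minus strand: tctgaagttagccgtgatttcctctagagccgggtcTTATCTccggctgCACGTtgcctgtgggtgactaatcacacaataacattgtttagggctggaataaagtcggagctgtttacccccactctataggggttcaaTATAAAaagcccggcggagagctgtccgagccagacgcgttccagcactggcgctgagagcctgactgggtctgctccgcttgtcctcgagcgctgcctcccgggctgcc
Ednra, chr19:47137674-47137923, plus strand: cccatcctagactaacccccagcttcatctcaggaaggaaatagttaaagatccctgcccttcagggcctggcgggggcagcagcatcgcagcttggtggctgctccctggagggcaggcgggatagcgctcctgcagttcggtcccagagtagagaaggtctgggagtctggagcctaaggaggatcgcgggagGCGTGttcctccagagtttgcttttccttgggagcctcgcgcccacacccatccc
The motif of AP-1 was written as TGANTCA and the TATA box as TATAAA. The motif of GATA factors was AGATAA. The core of the hypoxia response element was searched in its forms ACGTG and, separately, GCGTG. The cyclic AMP response core was TGACG, whose last bases can overlap a hypoxia core. The GC box was GGGCGG. The Edn1 window held AGATAA, read on the other strand as TTATCT, at -214 to -209, ACGTG, read as CACGT, at -201 to -197, and TATAAA at -110 to -105. The Ednra window held GCGTG at -55 to -51 and no other match. Of 33469 rat promoters of this length, 10.3% held AGATAA, 16.6% ACGTG, 12.9% TATAAA and 25.9% GCGTG. Such matches are descriptions of letters. Promoters of 6 of the 8 genes were in the table.

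Against Sham, the injured kidneys had more Edn1 and far less Edn3, more Ednra in each injured group, and more Bdkrb2 where RM was present. The Edn1 call in RM rested on single libraries, and the Ednra call in HS was lost against Sham 1 and 6 only. In RM-HS, 3 of the 7 tested genes were higher and 1 was lower, beside 21.3% higher and 21% lower over all tested rows. In RM, 4 were higher and 1 was lower, beside 26.2% and 26.8%. In HS, 2 were higher and 1 was lower, beside 23.3% and 23.2%. With so many rows passing, the count of members is no more than a description, and the size and spread of each gene follow. Against Sham 1 and 6 only, the counts were 3 higher and 1 lower in RM-HS, 4 and 1 in RM, and 1 and 1 in HS, beside 15% and 12.3% of all rows in RM-HS, 18% and 14.9% in RM, and 14.6% and 11.1% in HS. With libraries named R alone, RM 1 is the only RM library. That fit assumes that RM 1 varies like the other groups, so no count of members is given for it.

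**Figure D1:**
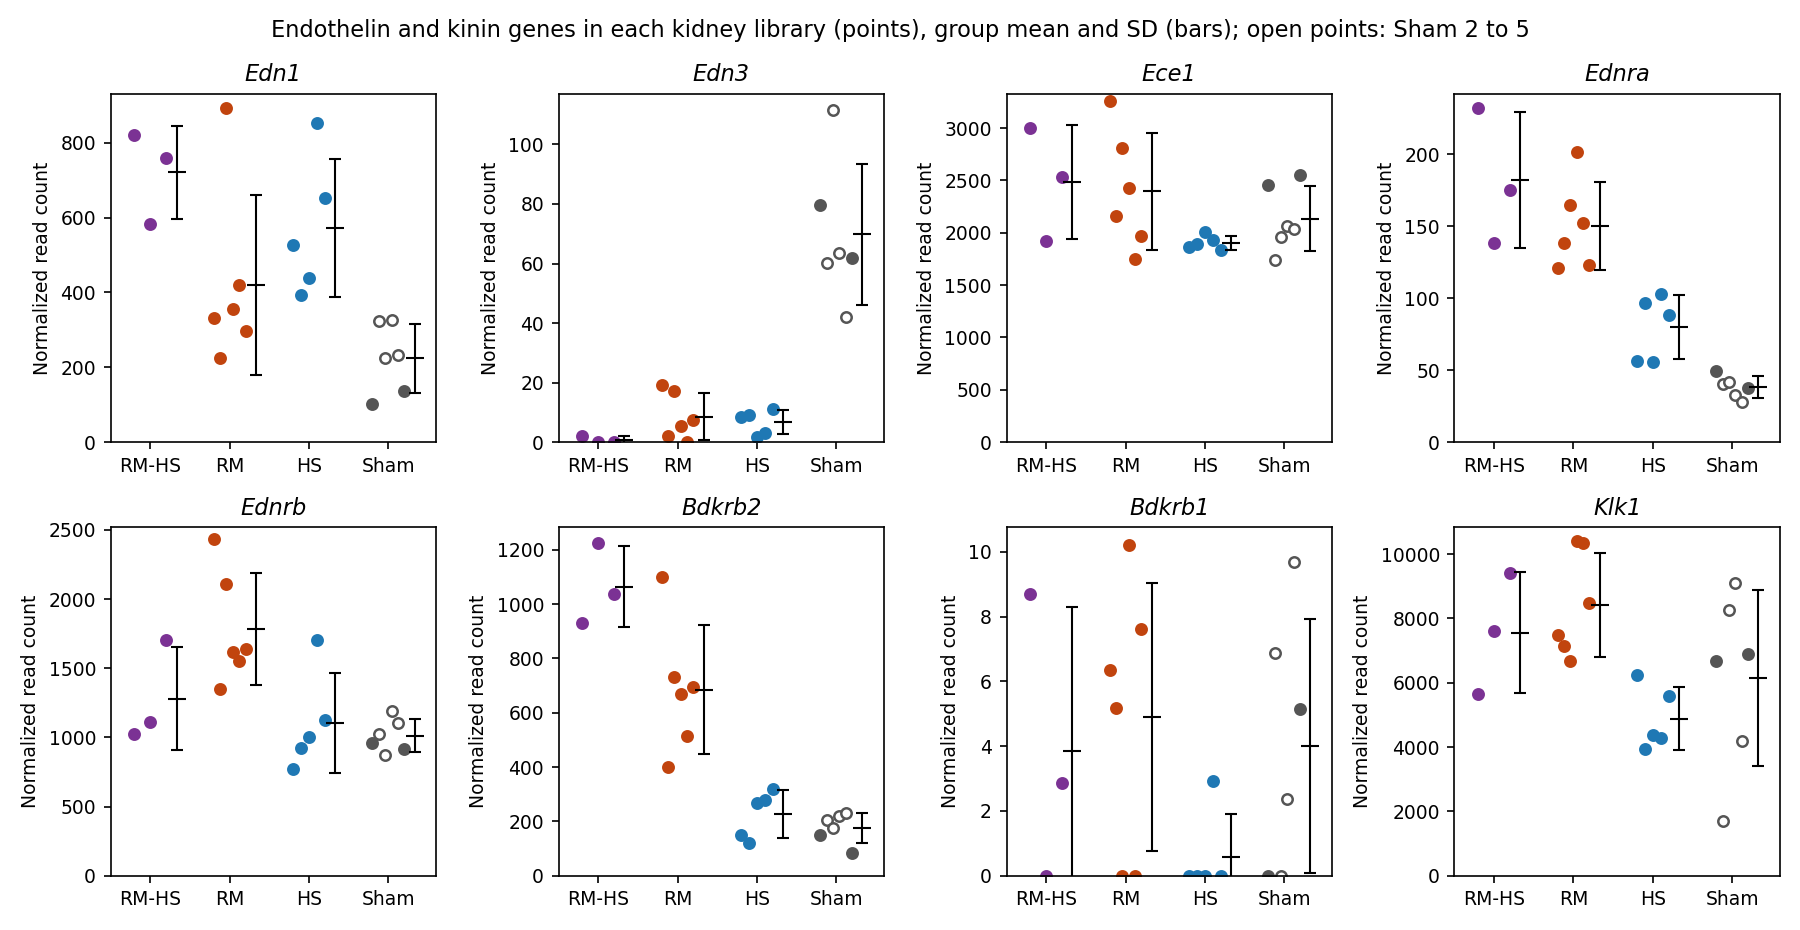
Normalized read count of each of the 8 genes (linear axes from 0) in every library, grouped as RM-HS, RM, HS and Sham, with group mean and SD as bars and open points for Sham 2 to 5. Edn3 lies lower in every injured library than in any Sham library, and Bdkrb2 separates RM-HS and RM from HS and Sham.

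Edn1 encodes the constrictor peptide endothelin 1 (GSRG0013287, rn6 chr17:22137324-22143324). Its level was 820, 582 and 760 in RM-HS 1 to 3, and its lowest, median and highest values were 224, 343 and 892 in the 6 RM libraries. It was 526, 392, 438, 852 and 652 in HS 1 to 5, against 101, 228 and 326 as the lowest, median and highest of 6 Sham libraries. Every RM-HS and HS library thus lay above every Sham library, while RM overlapped with Sham. The mean was 721 ± 124 in RM-HS, 420 ± 240 in RM, 572 ± 185 in HS and 224 ± 92.6 in Sham (SD, n = 3, 6, 5 and 6). Edn1 was higher than Sham by 1.79 ± 0.38 in RM-HS (limma adjusted p = 0.000872) and by 1.41 ± 0.32 in HS (limma adjusted p = 0.00141). In RM the difference was 0.88 ± 0.31 (limma adjusted p = 0.0221), and that call rested on single libraries. It was 0.63 without RM 3 (limma adjusted p = 0.0646), 0.67 without Sham 1 (limma adjusted p = 0.0609) and 0.76 without Sham 6 (limma adjusted p = 0.0533). It was 0.44 with the name letter as a covariate (limma adjusted p = 0.475) and 0.68 with libraries named R alone (limma adjusted p = 0.476). Sham 1 and 6 had the lowest Edn1 of all 20 libraries, and against them alone the differences were larger, at 2.59 in RM-HS, 1.68 in RM and 2.21 in HS (limma adjusted p = 0.000474, 0.00324 and 0.00106).

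In order of mean level Edn1 ran from RM-HS through HS and RM to Sham. Neighbours within the injured groups did not differ beyond their spread. RM-HS minus HS was 0.37, with a 95% interval of -0.44 to 1.19, and RM minus HS was -0.54, with an interval of -1.21 to 0.14.

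Edn3 encodes endothelin 3, the ligand that acts mainly on the type B receptor (GSRG0020122, rn6 chr3:172856730-172879276). It was 2.18, 0 and 0 in RM-HS 1 to 3. In RM its lowest, median and highest values were 0, 6.59 and 19.1, and in HS 1 to 5 it was 8.31, 9.07, 1.80, 2.94 and 11.2. In Sham the lowest, median and highest values were 42, 62.6 and 112. All 14 injured libraries lay below all 6 Sham libraries, whether Sham 1 and 6 (79.8 and 61.7) or the other four. The fitted differences were -5.53 ± 0.77 in RM-HS, -3.42 ± 0.63 in RM and -3.36 ± 0.66 in HS (limma adjusted p = 1.66e-05, 0.000148 and 0.000385). Set against Sham 1 and 6 only, they were -5.60, -3.49 and -3.43 (limma adjusted p = 0.00206, 0.0144 and 0.0233).

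These differences rest on few reads. The RM-HS libraries held 2 Edn3 reads in all, against 421 in Sham. The ratio of rates, RM-HS over Sham, was 0.0113, with an exact 95% counting interval of 0.00136 to 0.0410 that covers counting error only. For RM the reads were 49 and the ratio was 0.121 (0.0882 to 0.163). For HS they were 30 and the ratio was 0.0867 (0.0578 to 0.126). RM 1, the only R library of RM, had the highest Edn3 of the injured libraries (19.1), and with libraries named R alone the RM difference was -1.76 (limma adjusted p = 0.273). The difference between RM-HS and HS was -2.17 ± 0.80 and did not pass (limma adjusted p = 0.0595), although it did in 5 of the alternatives tried.

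The ligand genes Edn1 and Edn3 stood on opposite sides of Sham. Within each library, Edn1 had 377 times the normalized count of Edn3 in RM-HS 1, the one RM-HS library with Edn3 reads. The ratio was 17.4 to 108 in the 5 RM libraries with Edn3 reads and 43.3 to 290 in HS, against 1.27 to 5.54 in Sham. The counts are not scaled for transcript length, so the ratio serves to compare libraries and not the level of the genes. Markers of the collecting duct and of the thick ascending limb were lower along with Edn3. All 8 principal cell markers were lower than Sham in each injured group. Their summed count was 9510 to 21880 in RM-HS, 12920 to 41540 in RM and 14930 to 23390 in HS, against 35840 to 94150 in Sham. Against Sham 1 and 6 only, 4, 4 and 2 of the 8 were lower in RM-HS, RM and HS. Of 6 thick ascending limb markers, 5 were lower in RM-HS, 6 in RM and 6 in HS, and against Sham 1 and 6 only 4 were lower in RM-HS, 5 in RM and 6 in HS. Their sum was 137000 to 164800 in RM-HS, 91530 to 203400 in RM and 73220 to 125400 in HS, against 179800 to 299500 in Sham. The 6 inner medulla markers went both ways, with 1 higher and 5 lower in RM-HS, 1 and 4 in RM, and 1 and 4 in HS. Against Sham 1 and 6 only they were 1 and 1 in RM-HS, 1 and 2 in RM, and 1 and 0 in HS. The higher one was the osmolyte transporter gene Slc5a3. It was 4719 to 6258 in RM-HS, 4004 to 15870 in RM and 1978 to 9354 in HS, against 556 to 1239 in Sham. The sum of this list overlapped, at 5826 to 9264 in RM-HS, 5799 to 18910 in RM and 3336 to 11090 in HS. In Sham the sum was 5359 to 8446. Slc5a3 made up most of that sum in every injured library, so the overlap does not describe the lower markers. The part of collecting duct, thick ascending limb and inner medulla cells in the Edn3 result was not tested. In RNA of frozen kidney tissue, fewer cells of a type and less RNA per cell cannot be told apart.

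Ece1 encodes the main endothelin converting enzyme (GSRG0024433, rn6 chr5:156215434-156318648). It was 3001, 1921 and 2535 in RM-HS 1 to 3, its lowest, median and highest values in RM were 1751, 2291 and 3254, and it was 1860, 1892, 2010, 1926 and 1838 in HS 1 to 5. In Sham the lowest, median and highest values were 1739, 2048 and 2552. All groups overlapped with Sham. Ece1 divided the Sham libraries, with 2457 and 2552 in Sham 1 and 6, above every HS library, and 1739 to 2061 in Sham 2 to 5. Against Sham 1 and 6 only, Ece1 passed in no injured group. No difference passed, and the 95% intervals against Sham were -0.14 to 0.55 in RM-HS, -0.14 to 0.43 in RM and -0.45 to 0.14 in HS. HS was the least variable group, with an SD of 67.2 around a mean of 1905.

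Ednra encodes the type A receptor, which carries the constrictor response (GSRG0014537, rn6 chr19:33928356-33991703). Its level was 232, 139 and 175 in RM-HS 1 to 3, and 121, 145 and 202 as the lowest, median and highest of RM. It was 56.5, 96.4, 55.9, 103 and 88.1 in HS 1 to 5, against 28.0, 39.1 and 49.4 as the lowest, median and highest of Sham. Every injured library lay above every Sham library, and every RM-HS and RM library lay above every HS library. Against Sham the differences were 2.21 ± 0.25 in RM-HS, 1.94 ± 0.21 in RM and 1.01 ± 0.22 in HS (limma adjusted p = 1.99e-06, 2.87e-07 and 0.000784). The mean level was 4.74 times Sham in RM-HS, 3.91 times in RM and 2.08 times in HS. When Sham 1 and 6 were the only controls, the HS difference was 0.83 and no longer passed (limma adjusted p = 0.0546), while RM-HS and RM kept their calls at 2.02 and 1.75 (limma adjusted p = 0.000461 and 0.000362).

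The groups with RM also differed from HS in Ednra. RM-HS was above HS by 1.19 ± 0.26 (limma adjusted p = 0.00367) and RM was above HS by 0.92 ± 0.22 (limma adjusted p = 0.00409). With libraries named R alone the RM and HS difference was 0.83 (limma adjusted p = 0.386). RM-HS and RM did not differ beyond their spread, with a 95% interval of -0.26 to 0.79.

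Ednrb encodes the type B receptor (GSRG0011784, rn6 chr15:88006975-88036354). It was 1022, 1111 and 1707 in RM-HS 1 to 3, its lowest, median and highest values in RM were 1347, 1629 and 2437, and it was 769, 924, 1004, 1706 and 1126 in HS 1 to 5. In Sham the lowest, median and highest values were 871, 995 and 1194. RM libraries alone lay wholly above Sham. The difference was 0.80 ± 0.17 in RM (limma adjusted p = 0.000766), 0.31 ± 0.21 in RM-HS (limma adjusted p = 0.256) and 0.08 ± 0.18 in HS (limma adjusted p = 0.746). RM was also above HS by 0.71 ± 0.18 (limma adjusted p = 0.00768). RM-HS minus RM was -0.49, with a 95% interval of -0.93 to -0.04 and a limma adjusted p of 0.271, so the difference between those groups did not pass.

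The balance of the receptor genes was read within each library. Ednra divided by Ednrb was 0.103, 0.125 and 0.227 as the lowest, median and highest in RM-HS. The same values were 0.0495, 0.0882 and 0.125 in RM and 0.0557, 0.0735 and 0.104 in HS, against 0.0254, 0.0402 and 0.0513 in Sham. All RM-HS and HS libraries lay above all Sham libraries, and RM overlapped with Sham through RM 1, the library with the highest Ednrb. The ratio is built from levels already described and was given no test.

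**Figure D2:**
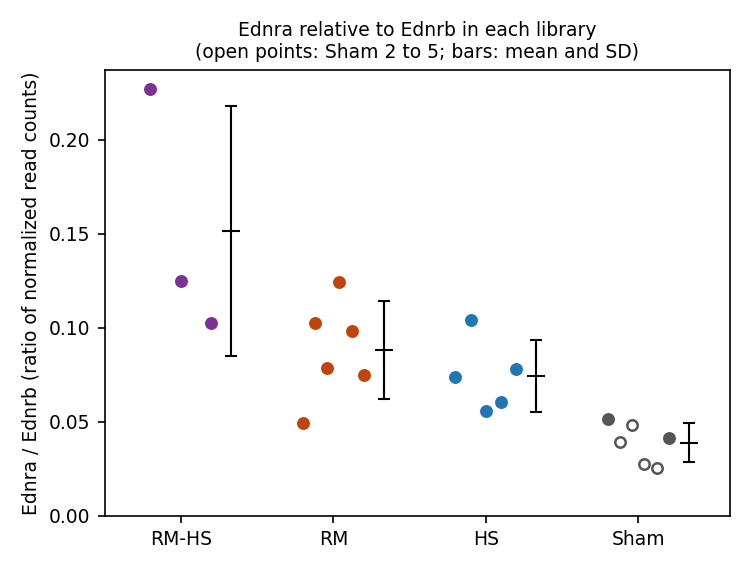
Ratio of Ednra to Ednrb normalized counts (linear axis from 0) in every library, with group mean and SD as bars and open points for Sham 2 to 5. The 3 RM-HS libraries span 0.103 to 0.227, against 0.0254 to 0.0513 in the 6 Sham libraries.

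Bdkrb2 encodes the constitutive bradykinin receptor (GSRG0026383, rn6 chr6:129399467-129429676). Its level was 931, 1227 and 1036 in RM-HS 1 to 3, and 402, 683 and 1100 as the lowest, median and highest of RM. It was 149, 121, 269, 279 and 320 in HS 1 to 5, against 82.3, 190 and 230 as the lowest, median and highest of Sham. Every RM-HS and RM library lay above every HS and every Sham library, while HS overlapped with Sham. The mean was 1065 ± 150 in RM-HS, 685 ± 239 in RM, 228 ± 87.2 in HS and 177 ± 55.4 in Sham (SD, n = 3, 6, 5 and 6). Against Sham the differences were 2.65 ± 0.34 in RM-HS, 1.95 ± 0.28 in RM and 0.34 ± 0.29 in HS (limma adjusted p = 6.43e-06, 8.41e-06 and 0.36). Against HS they were 2.31 ± 0.35 in RM-HS and 1.61 ± 0.29 in RM (limma adjusted p = 0.000219 and 0.000477). RM-HS minus RM was 0.70, with a 95% interval of -0.01 to 1.40 that did not pass (limma adjusted p = 0.323). Against those 2 controls, Sham 1 and 6, the differences were 3.24 in RM-HS, 2.55 in RM and 0.93 in HS (limma adjusted p = 6.72e-05, 0.000118 and 0.0826). In Bdkrb2 as in Ednra, every RM-HS and RM library lay above every HS library. RM-HS and RM overlapped in both genes, so their order is not established.

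Bdkrb1, the inducible receptor and the neighbour of Bdkrb2 on the same chromosome (GSRG0026384, rn6 chr6:129438149-129440574), was near the limit of detection. It had 63 reads in the whole series. Its normalized count was 8.71, 0 and 2.85 in RM-HS 1 to 3, its lowest, median and highest values were 0, 5.77 and 10.2 in RM, and in HS 2.94 in HS 4 and 0 in the other four. In Sham it was 0, 3.75 and 9.69 as the lowest, median and highest. The groups overlapped, and no test was made.

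Klk1 encodes tissue kallikrein (GSRG0000536, rn6 chr1:100131562-100135556). It was 5650, 7624 and 9406 in RM-HS 1 to 3, its lowest, median and highest values in RM were 6692, 7990 and 10410, and it was 6227, 3928, 4383, 4268 and 5602 in HS 1 to 5. In Sham the lowest, median and highest values were 1707, 6787 and 9104. Every RM library lay above every HS library, and all 3 injured groups overlapped with Sham. The differences from Sham were 0.45 ± 0.36 in RM-HS, 0.62 ± 0.29 in RM and -0.17 ± 0.31 in HS, and none passed (limma adjusted p = 0.32, 0.0796 and 0.685). RM minus HS was 0.79 ± 0.31 (limma adjusted p = 0.0664), and it passed in a fit of those groups alone (limma adjusted p = 0.00254).

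The Sham libraries set much of the spread of Klk1. Sham 2 and Sham 5 had 1707 and 4187, against 6679 to 9104 in the other four. They were low in Slc12a3 too, the sodium chloride transporter of the distal convoluted tubule, at 1602 and 3401 against 9522 to 11780 in the other four. Klk1 belongs to a family of near-identical genes, among which the counting could split reads, so its values carry that uncertainty. Over 20 libraries, the genes whose centred log2 values lay closest to those of Klk1 were its paralogs Klk1b3 and Klk1c3, with root mean square differences of 0.18 and 0.27, and Slc12a3 with 0.35, beside a spread of Klk1 itself of 0.60. The summed count of distal convoluted and connecting tubule markers, 5 of 7 listed genes being in the table, was 11760 to 22250 in RM-HS, 13450 to 22040 in RM and 9951 to 22210 in HS, against 3231 to 26760 in Sham. Pvalb, one of its defining markers, was at or near 0 in all groups, with at most 9.12 in any library, and failed the filter. Of the 4 tested markers of this list, 1 was higher than Sham and 0 were lower in each injured group. Against Sham 1 and 6 only, the counts were 1 and 1 in RM-HS and in RM, and 1 and 0 in HS. Trpv5 lay above Sham in every injured library, at 1039 to 2862 in RM-HS, 1210 to 2612 in RM and 1445 to 2097 in HS. In Sham it was 49.0 to 332.

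**Figure D3:**
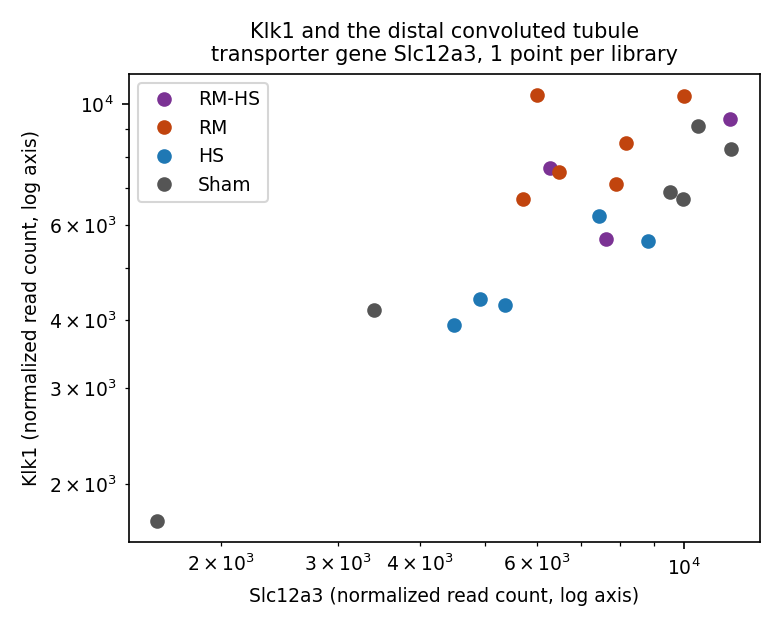
Klk1 against Slc12a3, both as normalized read counts on log axes, with 1 point per library coloured by group. Sham 2, with 1602 of Slc12a3 and 1707 of Klk1, lies far below the other libraries on both axes.

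**Figure D4:**
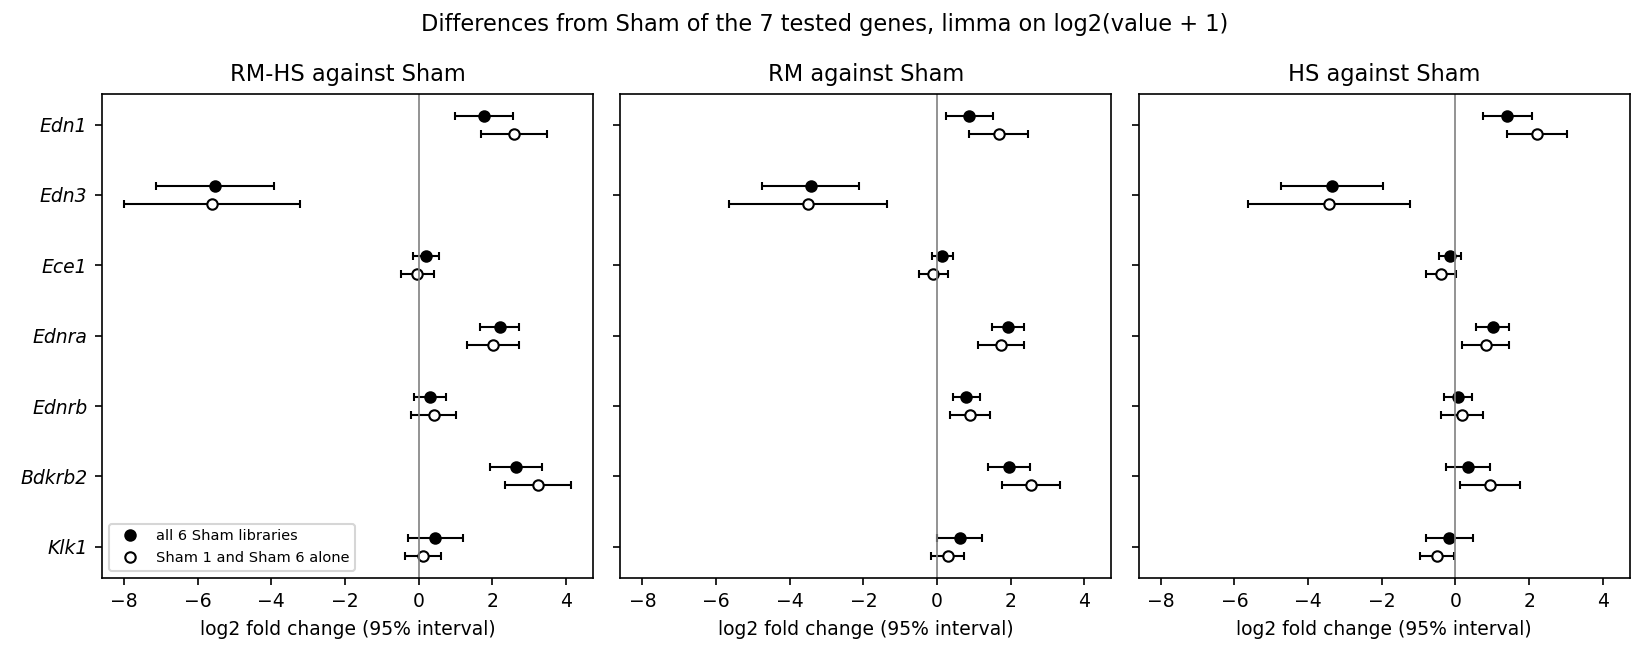
Log2 fold change against Sham (points) with its 95% interval (lines) for the 7 tested genes in RM-HS, RM and HS, with all 6 Sham libraries (filled) and with Sham 1 and Sham 6 alone (open). Ednra and Bdkrb2 lie right of 0 and Edn3 left of 0 in both RM-HS and RM, with either set of controls.

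Direct comparison of the injured groups followed the receptors. RM-HS was above HS in 2 of 7 members, Ednra and Bdkrb2, beside 10% of all rows higher and 10.6% lower. RM was above HS in 3 of 7, Ednra, Ednrb and Bdkrb2, beside 11.1% higher and 12.6% lower. Between RM-HS and RM, 0 of 7 passed with limma, edgeR or DESeq2, beside 0.395% higher and 0.689% lower over all rows, and 3 had an unadjusted limma p under 0.05. These were Edn1 at 0.91 ± 0.38, Edn3 at -2.10 ± 0.77 and Ednrb at -0.49 ± 0.21 (limma adjusted p = 0.243, 0.187 and 0.271). The departure from additivity, that is RM-HS less the sum of the separate RM and HS differences from Sham, was passed by 0 of 7 with each of these tools, beside 14.9% of all rows higher and 16.8% lower. One had an unadjusted limma p under 0.05, Ednra at -0.75 ± 0.33 (limma adjusted p = 0.0946).

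Other genes of the pathway were read from a list of 31 precursors, processing enzymes, peptidases and inhibitors, of which 27 rows were found and 25 were tested. Among these 4 were higher and 2 lower than Sham in RM-HS, 4 higher and 1 lower in RM, and 3 higher and 3 lower in HS. As shares of the list these were 16% and 8% in RM-HS, 16% and 4% in RM, and 12% and 12% in HS, each below the share of all tested rows, which was 21.3% and 21% in RM-HS, 26.2% and 26.8% in RM, and 23.3% and 23.2% in HS. The median difference was 0.32 in RM-HS, 0.21 in RM and -0.04 in HS, beside -0.03, -0.04 and -0.03 over all tested rows. Against Sham 1 and 6 only, the counts were 3 and 1 in RM-HS, 3 and 1 in RM, and 2 and 4 in HS. A joint row of kininogen genes was among those that were higher. Kng1 and Kng2, the kininogen genes, share this single row, so which of them rose cannot be told. The row stood at 1314, 1002 and 1008 in RM-HS 1 to 3. Its lowest, median and highest values were 184, 1138 and 1539 in RM, 501, 771 and 1327 in HS, and 14.4, 71.2 and 296 in Sham. All RM-HS and HS libraries lay above Sham, and RM overlapped through RM 1 alone. The joint kininogen row was higher by 3.97 ± 0.67 in RM-HS, 3.54 ± 0.55 in RM and 3.57 ± 0.58 in HS (limma adjusted p = 0.000117, 2.43e-05 and 5.79e-05). Its departure from additivity was -3.14 ± 0.89 (limma adjusted p = 0.011), and RM-HS did not pass against RM or against HS.

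Inhibitors and peptidases went different ways. Serpina3n, a serine protease inhibitor, was higher by 4.56 ± 0.997 in RM-HS, 4.45 ± 0.81 in RM and 5.30 ± 0.85 in HS (limma adjusted p = 0.00115, 0.000134 and 5.6e-05). Prep, the prolyl endopeptidase that cleaves short peptides such as bradykinin, was 2914, 3688 and 3867 in RM-HS 1 to 3. Its lowest, median and highest values were 4356, 6390 and 8961 in RM, 2498, 2792 and 3250 in HS, and 4934, 6154 and 7540 in Sham. Prep was thus low in the groups with HS, with RM-HS and HS wholly below both RM and Sham. It was lower than Sham by -0.81 ± 0.18 in RM-HS and -1.13 ± 0.15 in HS (limma adjusted p = 0.00129 and 1.13e-05), with 0.06 in RM. It was the only pathway gene to pass between RM-HS and RM, at -0.87 ± 0.18 (limma adjusted p = 0.0289), a contrast with a background of 0.395% higher and 0.689% lower.

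Kel, a relative of the endothelin converting enzymes which in human cleaves the endothelin 3 precursor, was higher by 1.06 ± 0.40 in RM-HS and 1.21 ± 0.32 in RM (limma adjusted p = 0.0379 and 0.00384), and neither rise passed against Sham 1 and 6 only (limma adjusted p = 0.346 and 0.163). Cpn1, the catalytic subunit of carboxypeptidase N, was lower by -0.48 ± 0.16 in RM and -0.48 ± 0.17 in HS (limma adjusted p = 0.0158 and 0.0235). The bradykinin-degrading peptidase gene Ace and the neutral endopeptidase gene Mme passed in none of the 3. The third ligand gene, Edn2, had 27 reads in all and was not tested. Its count was 6.53, 17.5 and 0 in RM-HS 1 to 3 and 0 in all RM libraries, with 2.71 in HS 3, 2.86 in Sham 3 and 0 in the other HS and Sham libraries.

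**Figure D5:**
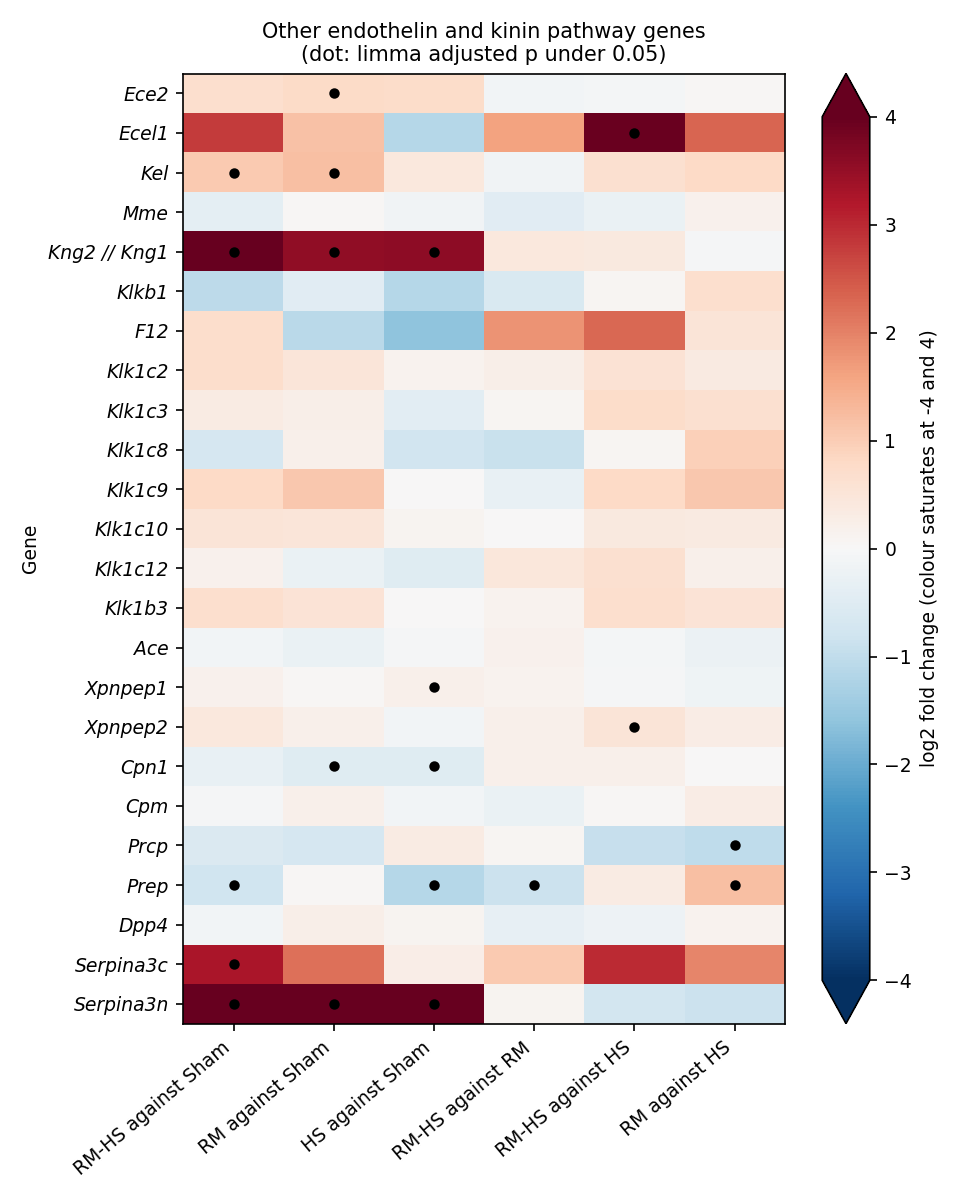
Log2 fold change of 24 of the 25 tested pathway genes (rows) in 6 comparisons (columns), with colour from -4 to 4 and a dot where the limma adjusted p was under 0.05. The kininogen row and Serpina3n carry dots against Sham in RM-HS, RM and HS, and Prep carries the single dot between RM-HS and RM.

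Receptor signalling and other vasoactive genes formed a second list, of which 22 of 23 were tested. In RM-HS 7 were higher and 4 lower than Sham, in RM 10 and 3, and in HS 3 and 3. As shares these were 31.8% and 18.2% in RM-HS, 45.5% and 13.6% in RM, and 13.6% and 13.6% in HS, beside the shares of all tested rows given for the pathway list. The median difference was -0.09 in RM-HS, 0.29 in RM and 0.11 in HS, beside -0.03, -0.04 and -0.03 over all rows. The counts were 4 and 5 in RM-HS, 4 and 2 in RM, and 2 and 3 in HS against Sham 1 and 6 only. The vasodilator peptide gene Adm stood at 1531, 1530 and 821 in RM-HS 1 to 3, with a median of 1447 in RM, 266 in HS and 147 in Sham. It was higher by 3.07 ± 0.25 in RM-HS, 3.22 ± 0.20 in RM and 0.94 ± 0.21 in HS (limma adjusted p = 3.04e-08, 3.84e-10 and 0.00124), the last of which was lost against Sham 1 and 6 only (limma adjusted p = 0.0521). Rgs2, which dampens signals of Gq-coupled receptors such as those of endothelin and bradykinin, was higher by 0.96 ± 0.29 in RM-HS and 1.37 ± 0.24 in RM (limma adjusted p = 0.0116 and 7.04e-05).

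The nitric oxide synthase genes differed among themselves. Nos2, the inducible form, was higher by 4.08 ± 0.77 in RM-HS and 2.71 ± 0.63 in RM (limma adjusted p = 0.000317 and 0.00124), and Nos3, the endothelial form, by 0.89 ± 0.23 and 0.55 ± 0.19 (limma adjusted p = 0.00402 and 0.0183). Nos1, the neuronal form, did not pass, at -0.59 ± 0.44 in RM-HS and -0.03 ± 0.36 in RM (limma adjusted p = 0.293 and 0.954). Ptgs1, cyclooxygenase 1, was lower by -2.48 ± 0.40 in RM-HS, -1.63 ± 0.32 in RM and -1.97 ± 0.34 in HS (limma adjusted p = 6.25e-05, 0.000301 and 0.000108). Against Sham 1 and 6 only, the RM call was lost (limma adjusted p = 0.0955). Gna11, a G protein subunit of these receptors, was lower by -0.43 ± 0.10 in RM-HS and -0.36 ± 0.08 in RM (limma adjusted p = 0.00204 and 0.000942), while its relative Gnaq was higher by 0.32 ± 0.08 in RM and 0.83 ± 0.09 in HS (limma adjusted p = 0.00332 and 7.2e-07). The Gnaq call in RM was lost against Sham 1 and 6 only (limma adjusted p = 0.245).

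Markers of vascular, immune, matrix, podocyte and proximal tubule cells were counted the same way. Those of the collecting duct are given with Edn3 above. Over all tested rows, 21.3% were higher and 21% lower than Sham in RM-HS. The shares were 26.2% and 26.8% in RM, and 23.3% and 23.2% in HS. Against Sham 1 and 6 only they were 15% and 12.3%, 18% and 14.9%, and 14.6% and 11.1%. These shares stand beside the counts of every marker list, also those given with Edn3 and Klk1. With so many rows passing, the marker counts are descriptions. Of 9 tested endothelial markers, 1 was higher and 4 were lower than Sham in RM-HS, 1 and 3 in RM, and 1 and 6 in HS. Their summed count was 9552 to 11700 in RM-HS, 10100 to 17590 in RM and 8979 to 10990 in HS, against 11760 to 17860 in Sham. Of 10 smooth muscle, pericyte and mesangial markers, 2 were higher and 2 lower in RM-HS, 3 and 2 in RM, and 0 and 2 in HS. Their sum was 7770 to 14310 in RM-HS, 9336 to 18290 in RM and 6852 to 12400 in HS, against 9324 to 15660 in Sham. No marker of either list was at 0 throughout a group. Of 6 neutrophil markers, 5 were higher and 0 lower in RM-HS and in RM, and 1 was higher and 1 lower in HS, with sums of 8400 to 14110 in RM-HS, 6045 to 22080 in RM and 2794 to 8955 in HS, against 2473 to 6768 in Sham. Against Sham 1 and 6 only, the neutrophil counts were 5 and 0 in RM-HS and in RM, and 3 and 0 in HS. Of 7 macrophage markers, 2 were higher and 2 lower in RM-HS, 1 and 0 in RM, and 0 and 3 in HS. The macrophage counts against Sham 1 and 6 only were 3 and 2 in RM-HS, 2 and 0 in RM, and 1 and 1 in HS. The endothelial ones were 1 and 5, 1 and 3, and 1 and 6 in RM-HS, RM and HS, and the smooth muscle, pericyte and mesangial ones 2 and 2, 2 and 0, and 0 and 2. Of 7 fibroblast and matrix markers, 0 were higher and 4 lower in RM-HS, 0 and 4 in RM, and 0 and 3 in HS. Against Sham 1 and 6 only they were 0 and 1, 0 and 0, and 0 and 0. Of 7 podocyte markers, 2 were higher and 1 lower in RM-HS, 6 and 0 in RM, and 5 and 0 in HS. Against Sham 1 and 6 only these were 1 and 1, 1 and 0, and 0 and 0. Of 7 early proximal tubule markers, 7 were higher and 0 lower in RM-HS and in RM, and 5 and 0 in HS. The early proximal counts against Sham 1 and 6 only were 2 and 0, 1 and 0, and 0 and 0. Of 3 late proximal tubule markers, 1 was higher and 2 lower in each injured group, and 1 and 0 against Sham 1 and 6 only. The part of all these cells in the results was not tested.

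For each member the 3 genes with the closest pattern over 20 libraries were found from the root mean square difference of centred log2(value + 1). For Bdkrb2, whose own spread was 1.14, they were Cnnm4 at 0.43, the stress gene Gadd45a at 0.47 and the cytokine signalling suppressor Socs1 at 0.50. For Ednra, with a spread of 0.92, they were Zbtb21, Tfec and the cyclic AMP response modulator Crem at 0.31 to 0.33. For Edn1, with a spread of 0.84, they included Lrrc32 at 0.47 and Mpzl3 at 0.50. For Edn3, with a spread of 2.16, the closest was Slc6a12, the betaine transporter of the medulla, at 1.10, and it is also one of the inner medulla markers given above. For Ednrb, with a spread of 0.44, they included Adgrf5 and Notch1, both at 0.26, and for Ece1, with a spread of 0.26, they were Tfcp2, Nucb1 and Galnt10 at 0.16 to 0.19. All the genes share the libraries and their scaling, and the likeness is a description.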

How the data were processed

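Per the labels' protocols, mRNA of frozen rat kidney was sequenced as stranded paired-end libraries. Per the submitters' processing notes, reads were examined with FastQC 0.11.2, Picard 1.119 and SAMtools 1.0, aligned with STAR to rn6, and counted with featureCounts of Subread 1.5.0. The deposited signal values are read counts that the authors normalized with DESeq2. Dividing by the value of 1 read gave whole reads for 100% of values within 0.1 read. The sources used here give no settings for alignment or counting.

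Libraries were grouped by their disease label, and replicate numbers follow the order of listing. Rows with 10 or more in 3 or more libraries were tested with limma 3.58.1 (trend; R 4.3.3) on log2(value + 1), in 1 fit of 4 groups, and 7 comparisons were drawn from it, each adjusted over 15954 rows. The few reads of Edn3, Edn2 and Bdkrb1 limit their results. The procedure was tested on simulated data. Members and gene lists were chosen with earlier results of these data known. The text names the 8 members, the 3 nearest patterns per tested member, and some of the up to 5 genes per list and comparison with the smallest passing p. Nos1, Nos3, Ace, Mme, Edn2, Slc5a3 and Trpv5 fall outside this rule and were picked once their values were known. A few genes that the rule names are not reported here. Alternatives were pseudocounts 0.5 and 8, no filter, a filter of 50, TMM and upper quartile scaling, only the groups compared, the name letter as covariate, libraries named R alone, Sham 1 and Sham 6 alone, edgeR 4.0.16 and DESeq2 1.42.0 on the recovered reads, and leaving out each library.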

Additional observations from a re-analysis of the deposited data

Results flagged for a closer look

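Among 24 groups of values examined, 2 held a library far from the rest of its group, where chance gives about 1 in 20. That chance assumes normally distributed values, and the search used normalized counts, not their logs. RM-HS, with 3 libraries, was not examined. Edn1 was 892 in RM 3, against 224 to 421 in the other RM libraries. Bdkrb1 was 2.94 in HS 4, which is 3 reads, against 0 in the other HS libraries. With those at 0, a lone value of any size above 0 would be flagged. The stated chance therefore does not apply to Bdkrb1.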

How the results depend on the processing

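Direction held for every called member under all alternatives. Of the member results, 1519 kept their side of the threshold, while 13 newly passed and 8 no longer did. Many of these come from leaving out 1 library, also where that library was in no group compared. Such fits could hardly change a call, so the total is no measure of robustness. With libraries named R alone, RM keeps only RM 1, so its calls there rest on the spread of the other groups. For additivity, 1 member passed with a pseudocount of 8 (Edn3 at 1.61, limma adjusted p = 0.0147), and leaving out 1 library gave 0 to 1, the 1 being Ednrb without RM-HS 3 (-0.79, limma adjusted p = 0.0498). The other single-gene changes not given above were in Klk1, which passed against Sham in RM without Sham 3 or Sham 4 (0.74 and 0.77) and in HS without Sham 2 (-0.50). Edn3 passed between RM-HS and HS with a pseudocount of 0.5 (-2.78) and without RM-HS 1 (-2.72), RM 1, RM 5 or HS 3. Klk1 passed between RM and HS with DESeq2 (adjusted p = 0.0213) and without Sham 2. The cause was not tested. Upper quartile scaling lowered the median of all genes by -0.13, -0.14 and -0.12 in RM-HS, RM and HS against Sham. The share of calls that were higher became 36.9%, 37.0% and 38.5% there, in place of 50.3%, 49.4% and 50.1%, and for additivity 60.3% in place of 47%. No member's call changed with it. No paired analysis was possible because the labels carry no replicate numbers. Few reads limit Edn3 in RM-HS, Edn2 and Bdkrb1.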
